A study of Mus musculus with 6 samples.

Results

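Short isolated H3K36me3 peaks are called regions of the H3K36me3 list that were under 5 kb long (end minus start plus 1) and lay at least 10 kb from the H3K36me3 peak on either side. There were 595 of them among 7773 H3K36me3 peaks, or 7.65% of the peaks of that list and 1.22% of the bases it covers (1.90 Mb). They were set against the 307 short peaks that had an H3K36me3 neighbour closer than 10 kb, and against the 3860 isolated peaks of 5 kb and longer. The peaks were chosen by their length and their gap to H3K36me3, so those values are given as a description, whereas the H3K27me3 list was not used to choose them. The first or last peak of a chromosome was judged by its only neighbour, which applied to 8 of the 595.

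The peaks come from chromatin immunoprecipitation and sequencing (ChIP-seq) of C3H10T1/2, a mouse mesenchymal line of embryonic origin that can enter several lineages, at passages 10 to 15. The cells carried a stably expressed histone H3.3 with a FLAG-HA tag, either wild type or K36M, in which methionine replaces lysine at the modified site. Each genotype gave 1 input, 1 H3K36me3 and 1 H3K27me3 library, 6 in all, with no replicates. The promoter that drives the tagged histone, and whether each line is a clone or a pool, are unknown from the labels. The 2 peak lists, 1 per mark, name no genotype, so K36M and wild-type cells are not compared. For the same reason, a base shared by both lists need not have carried both marks in the same cells. The lists hold positions only, so the depth behind each peak is unknown. Positions are on the mouse build mm9 and count from 1.

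H3K36me3 is known as a broad mark of the bodies of transcribed genes, where SETD2 travels with elongating RNA polymerase II and adds the third methyl group. H3K27me3 is laid down by Polycomb repressive complex 2, mostly over silent genes and broad silent regions. That complex works poorly on histone tails that already carry H3K36 methylation, so both marks are usually found on separate stretches of chromatin. The K36M histone is known to inhibit H3K36 methyltransferases. An H3K36me3 peak of a few kilobases that stands alone is thus far smaller than the usual marked gene body.

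The short isolated peaks shared bases with H3K27me3 more often than the H3K36me3 list as a whole, yet those that shared none tended to lie farther from it than longer isolated peaks did. A base was shared with H3K27me3 by 24 of 595 short isolated peaks (4.03%, exact 95% interval 2.60 to 5.94), where the share over all H3K36me3 peaks was 0.939%. It was 3 of 307 for short peaks with a near neighbour (0.977%, 0.202 to 2.83) and 32 of 3860 for isolated peaks of 5 kb and longer (0.829%, 0.568 to 1.17). The 3 sharing short peaks with a near neighbour were all on chromosome 2, so that share rests on a single chromosome. The intervals of the short isolated and the longer isolated peaks did not overlap, whereas those of both short classes did. The excess over short peaks with a near neighbour, 3.06 percentage points, fell to 0.551 when isolation was set at 50 kb instead of 10 kb, and to 0.462 when H3K36me3 peaks closer than 5 kb were joined first. Both alternatives change the peaks compared. At 50 kb, 329 short isolated peaks (3.34% sharing) were set against 573 with a nearer neighbour. Joining kept the 595 short isolated peaks at 4.03% and left 84 with a near neighbour. Peaks are not replicates and each list comes without replicates, so no p-value is given. The intervals are of the exact binomial (Clopper-Pearson) kind, cover counting error only and treat neighbouring peaks as independent.

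The short isolated peaks made up 32.9% of the 73 H3K36me3 peaks that shared a base with H3K27me3, and 46.7% of the 45 that lay wholly inside an H3K27me3 peak. Wholly inside were 21 of 595 short isolated peaks (3.53%, 2.20 to 5.34), against 0.579% of all H3K36me3 peaks and 13 of 3860 longer isolated peaks (0.337%, 0.179 to 0.575). A shorter peak needs less room to be enclosed, and the comparison with short peaks that have a near neighbour (3 of 307 enclosed) is the one of like length. The smallest gap was 10.2 kb in the H3K27me3 list and 1.20 kb in the H3K36me3 list. A narrower break in H3K27me3 is thus not listed, and a short H3K36me3 peak within one would count as enclosed. How far this raised sharing, or its order by length, was not tested. In bases, the short isolated peaks held 62.4 kb of the 381 kb shared between the lists, or 16.4%.

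Among isolated peaks, sharing was more frequent in the shorter classes. It was 7 of 91 (7.69%, 3.15 to 15.2) for lengths from 1.20 to under 2 kb, 6 of 151 (3.97%) from 2 to under 3 kb, 8 of 164 (4.88%) from 3 to under 4 kb and 3 of 189 (1.59%, 0.329 to 4.57) from 4 to under 5 kb. Beyond the limit, it was 12 of 923 (1.30%) from 5 to under 10 kb and 4 of 1355 (0.295%, 0.0805 to 0.754) from 20 to under 50 kb. The values on either side of 5 kb, 1.59% and 1.30%, lay within each other's intervals, so the limit itself marked no step. The median length was 2.70 kb (1.80 to 3.20) for the 24 sharing peaks and 3.40 kb (3.20 to 3.40) for the other 571.

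**Figure D1:**
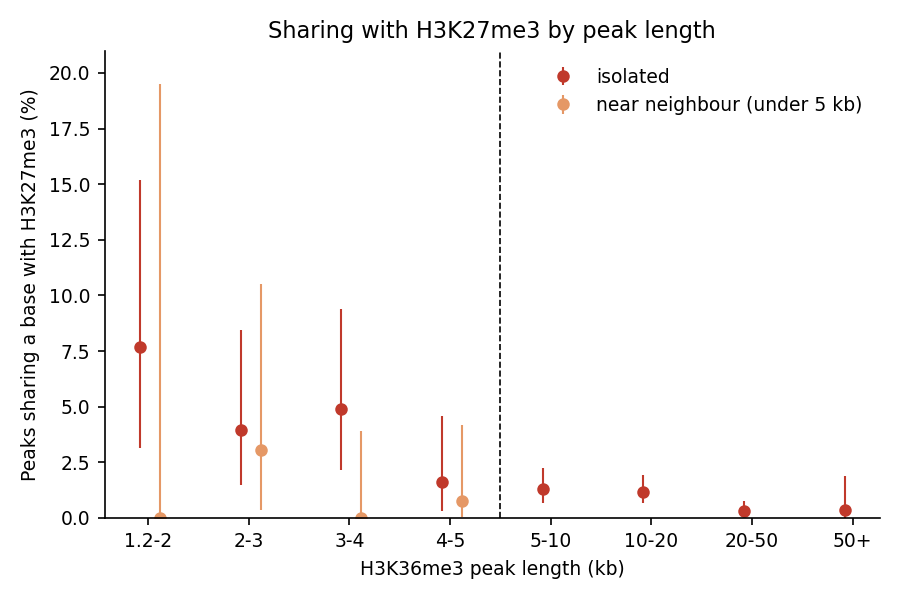
Percentage of H3K36me3 peaks that share at least 1 bp with H3K27me3 (y axis) by peak length in kb (x axis), for isolated peaks (red) and for short peaks with a near neighbour (orange). Points are shares, bars are exact 95% binomial intervals, and the dashed line is the 5 kb limit. The isolated peaks go from 7.69% in the shortest class to 0.295% between 20 and 50 kb.

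The H3K27me3 peaks that shared bases with these short H3K36me3 peaks were mostly broad. The 24 short isolated peaks shared bases with 22 H3K27me3 peaks of median length 90.7 kb, where the median of all H3K27me3 peaks was 24.4 kb. Of the 24, 3 were only partly covered. At chr4:3016401-3018600 and chr7:106395801-106397600, the H3K27me3 peak, of 1.60 and 1.40 kb, was shorter than the H3K36me3 peak. A longer peak offers more bases to share, and the lengths ran from 1.40 to 540 kb, with 10 of the 22 at 100 kb and longer. The 21 enclosed peaks lay a median of 19.8 kb from the nearer edge of their H3K27me3 peak, with a range of 0.200 to 229 kb. No H3K27me3 peak held more than 2 of them, and a pair was held in 2 cases.

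The 8 with the most shared bases were all wholly enclosed. The longest, of 4.80 kb at chr10:52260401-52265200, lay in an H3K27me3 peak of 12.8 kb and ended 0.200 kb from its edge. On the same chromosome, a peak of 4.20 kb at chr10:22090401-22094600 lay 229 kb inside an H3K27me3 peak of 540 kb, the broadest of the 22, and was 185 kb from the nearest H3K36me3 peak. A peak of 3.80 kb at chr10:57686401-57690200 lay 17.8 kb inside an H3K27me3 peak of 47.4 kb. These 3 therefore ranged from the rim of a narrow H3K27me3 peak to the depth of a very broad one.

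Chromosome 17 held 5 of the 24, more than any other chromosome, among its 38 short isolated peaks. A single H3K27me3 peak, at chr17:6319201-6379400, held 2 of the 5. Another of the 5 short isolated peaks, at chr17:6509401-6513200, lay close by in a separate H3K27me3 peak. Of the 5, 2 belong to the 8. A peak of 4.20 kb at chr17:34132201-34136400 lay 9.60 kb inside an H3K27me3 peak of 38.6 kb, and one of 3.80 kb at chr17:6509401-6513200 lay 33.2 kb inside a peak of 73.0 kb. The other 3 of the 8 were on chromosomes 2, 8 and 12. At chr8:28424801-28428400, 3.60 kb lay 36.4 kb inside a peak of 121 kb, and at chr12:83593801-83597000, 3.20 kb lay 17.2 kb inside a peak of 86.4 kb and 508 kb from any other H3K36me3 peak. At chr2:28083001-28086200, 3.20 kb lay 179 kb inside a peak of 438 kb, which also held a second of the 24. A further peak of 3.20 kb, on chromosome 17, shared as many bases and came later in the order of position. The sharing peaks were spread over 14 chromosomes, and 6 chromosomes had none.

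Where no base was shared, the distance to H3K27me3 was wide. The median distance of the 571 non-sharing short isolated peaks was 140 kb (95% interval of the median 121 to 160), against 89.1 kb (71.2 to 105) for the 304 non-sharing short peaks with a near neighbour and 78.8 kb (73.0 to 85.2) for the 3828 longer isolated peaks. The interval of the short isolated peaks overlapped with neither of the others. With sharing peaks counted at a distance of 0, the median of the short isolated peaks was 130 kb, with quartiles of 27.5 and 327 kb. That median was the larger one on 14 of 20 chromosomes against short peaks with a near neighbour, and on 18 of 20 against longer isolated peaks.

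No H3K27me3 lay within 100 kb of 336 short isolated peaks (56.5%, 52.4 to 60.5), against 47.2% of all H3K36me3 peaks. The share was 46.9% (41.2 to 52.7) for short peaks with a near neighbour and 44.2% (42.6 to 45.8) for longer isolated peaks. At 1 Mb, 47 short isolated peaks (7.90%, 5.86 to 10.4) had no H3K27me3 peak that near, where 7 of 307 short peaks with a near neighbour (2.28%, 0.922 to 4.64) and 132 of 3860 longer isolated peaks (3.42%, 2.87 to 4.04) had none. Compared with longer isolated peaks, the short isolated peaks thus had larger shares both inside H3K27me3 and far from it, with intervals that did not overlap. Against short peaks with a near neighbour, the intervals overlapped for peaks wholly inside H3K27me3 and for the limit of 100 kb, but not for that of 1 Mb.

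**Figure D2:**
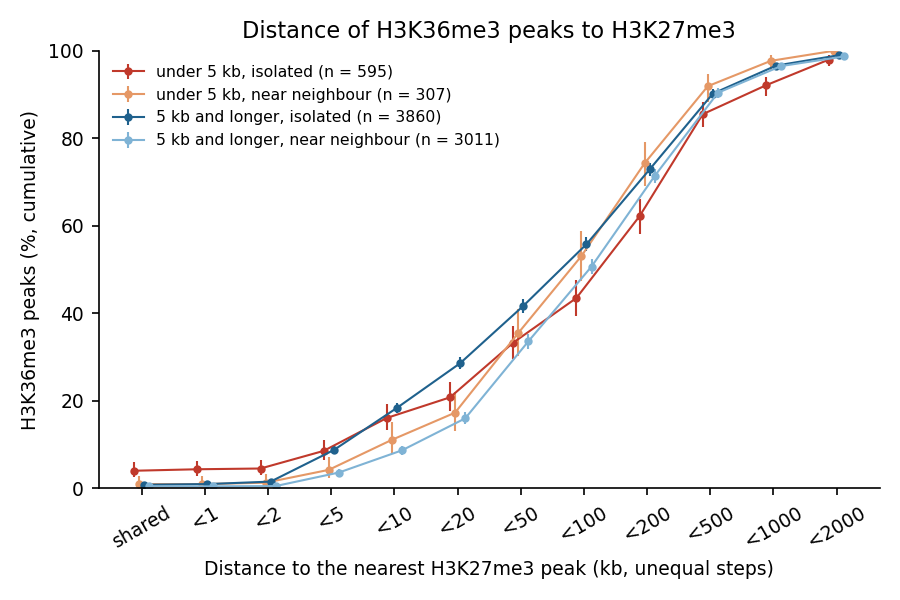
Cumulative percentage of H3K36me3 peaks (y axis) that share a base with H3K27me3 or lie under the stated distance in kb from it (x axis, unequal steps), for 4 classes by length and isolation. Bars are exact 95% binomial intervals. The short isolated peaks (red) start highest at 4.03% and are the lowest of the 4 classes at under 100 kb, where 43.5% of them are reached.

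Close H3K27me3 without sharing was about as frequent as in the list as a whole. It lay within 10 kb of 72 short isolated peaks (12.1%, 9.59 to 15.0), against 13.2% of all H3K36me3 peaks. Of these, 3 were closer than 2 kb, 24 were at 2 to 5 kb and 45 at 5 to 10 kb. The share was 10.1% (6.96 to 14.0) for short peaks with a near neighbour and 17.5% (16.4 to 18.8) for longer isolated peaks, so the short isolated peaks were below the longer ones and within the interval of the short ones. By length, it was 8 of 91 (8.79%) under 2 kb, 10 of 151 (6.62%, 3.22 to 11.8) from 2 to under 3 kb, 33 of 164 (20.1%, 14.3 to 27.1) from 3 to under 4 kb and 21 of 189 (11.1%, 7.01 to 16.5) from 4 to under 5 kb, which is no steady order.

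A near neighbour takes up room in which H3K27me3 could otherwise lie, so sides of peaks were also compared. A side was called open where the next H3K36me3 peak was at least 10 kb away, and only peaks that share no base with H3K27me3 were used. H3K27me3 began within 10 kb on 78 of 1142 open sides of the short isolated peaks (6.83%, 5.44 to 8.45), against 9.45% over all open sides of the H3K36me3 list. It did so on 29 of 262 open sides of short peaks with a near neighbour (11.1%, 7.54 to 15.5) and on 753 of 7656 open sides of longer isolated peaks (9.84%, 9.18 to 10.5). Measured by side, the short isolated peaks were again below the longer isolated peaks, in 16 of 20 chromosomes and with intervals that did not overlap. Against short peaks with a near neighbour the difference was -4.24 percentage points, and the intervals overlapped. The short isolated peaks were higher on 10 and lower on 9 chromosomes, but the 262 open sides leave few for each chromosome. Overlap of intervals is not a test of a difference, so none between the short classes is read as present or absent.

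The coverage of flanking bases by H3K27me3 was compared as well. Within 2 kb of the edge, H3K27me3 covered 0.186% ± 0.505 of the bases beside non-sharing short isolated peaks (mean and SD over 20 chromosomes) and 0.117% ± 0.173 beside non-sharing longer isolated peaks. These ranges overlapped, and only 3 of the 571 non-sharing short isolated peaks had H3K27me3 that near, so no order is read from them. With sharing peaks included, the means within 2 kb were 3.38% ± 3.26 and 0.686% ± 0.881, and from 2 to 5 kb they were 4.32% ± 3.55 and 2.71% ± 1.28. Farther out, the non-sharing short isolated peaks had the lower means. Beside short peaks with a near neighbour, part of the flank is taken by the H3K36me3 neighbour. From 5 to 10 kb outside the edge, H3K27me3 covered 4.29% ± 2.63 of the bases beside non-sharing short isolated peaks, against 6.83% ± 2.12 beside longer isolated peaks and 2.77% ± 2.70 beside short peaks with a near neighbour. From 20 to 50 kb, the values were 8.29% ± 3.98, 12.7% ± 3.18 and 8.40% ± 5.06 in the same order of classes. At 500 to 1000 kb they were 12.2% ± 4.50, 14.1% ± 4.35 and 14.6% ± 5.37. At each of these distances the ranges of mean ± SD of the 3 classes overlapped. The SD is the spread between chromosomes and not the error of a mean, so this overlap does not decide whether the classes differ. Coverage was not compared between classes within each chromosome. A chromosome held 15 to 44 short isolated peaks, so its own value rests on few of them.

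**Figure D3:**
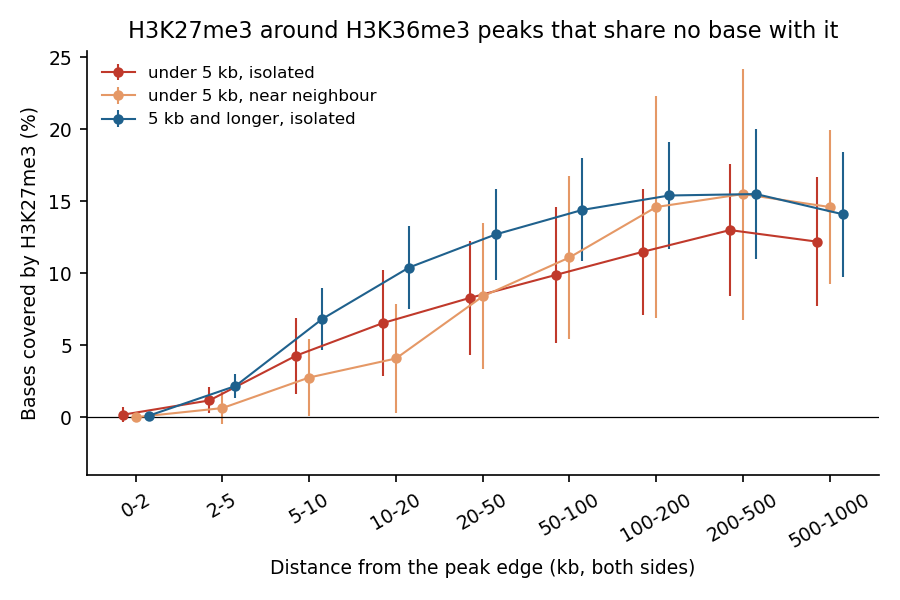
Bases covered by H3K27me3 in percent (y axis) at increasing distance in kb from the edges of H3K36me3 peaks that share no base with it (x axis, unequal steps), for short isolated peaks (red), short peaks with a near neighbour (orange) and longer isolated peaks (blue). Points are means and bars are SDs over 20 chromosomes. Short isolated peaks sit at 4.29% from 5 to 10 kb and 8.29% from 20 to 50 kb, below the longer isolated peaks with overlapping bars. The bars show spread between chromosomes, not the error of a mean.

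Along the chromosome, the next peak of either list was H3K27me3 on both sides for 88 of the 571 non-sharing short isolated peaks (15.4%, 12.5 to 18.6), on a single side for 257 (45%) and on neither for 226 (39.6%). The share with H3K27me3 on both sides was 10.4% over all non-sharing H3K36me3 peaks, which include peaks with a near neighbour that have little room for it. Among longer isolated peaks, which have the same 10 kb free on each side, it was 707 of 3828 (18.5%, 17.3 to 19.7), and the intervals overlapped. The share was larger at wide gaps to the nearest H3K36me3 peak, which leave more room for H3K27me3 by construction. It was 5 of 101 (4.95%) for gaps of 10 to 20 kb, 7 of 152 (4.61%) for 20 to 50 kb and 13 of 114 (11.4%) for 50 to 100 kb. For 100 to 500 kb it was 38 of 140 (27.1%, 20 to 35.3), and for 500 kb and more 25 of 64 (39.1%, 27.1 to 52.1). At equal gaps, longer isolated peaks had 38.3% (35.1 to 41.5) at 100 to 500 kb and 52.5% (44.9 to 59.9) at 500 kb and more. The intervals of the short and the longer isolated peaks overlapped in both of these gap classes.

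The stretch between both flanking H3K27me3 peaks, the short peak included, had a median of 277 kb (153 to 407) and ran from 12.8 kb to 5.61 Mb. In 6 of the 88 cases both H3K27me3 peaks were closer than 10 kb. The tightest place was chr16:17925001-17927400, a peak of 2.40 kb with H3K27me3 5.00 kb to its left and 5.40 kb to its right. At chr2:163293401-163296600, a peak of 3.20 kb had H3K27me3 at 9 and 4 kb. The next 3 each had 13.2 kb free in sum, and these were chr4:41663401-41667800 (4.40 kb long), chr8:3678201-3681600 (3.40 kb) and chr11:98442001-98445800 (3.80 kb). In these 5 places H3K36me3 stood in a narrow opening between H3K27me3 peaks without touching either. The smallest gap in the H3K27me3 list was 10.2 kb, so no opening narrower than that could be listed.

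The gap to the nearest H3K36me3 peak, which the rule set at 10 kb or more, had a median of 60.8 kb (51 to 67.4) with quartiles of 27.4 and 166 kb. For longer isolated peaks the median was 48.0 kb (45.6 to 50.4). The gap to the farther neighbour had a median of 319 kb (266 to 406) for short isolated peaks and 262 kb (249 to 273) for longer ones. No other H3K36me3 peak lay within 500 kb of 65 short isolated peaks (10.9%, 8.53 to 13.7), against 181 longer isolated peaks (4.69%, 4.04 to 5.40). Within 1 Mb, the median number of other H3K36me3 peaks was 8 for short isolated, 9 for longer isolated and 13 for short peaks with a near neighbour. By the values that chose them, most short isolated peaks thus had other H3K36me3 peaks within 500 kb. The part that had none was larger than among longer isolated peaks.

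The most remote were at chr12:49655201-49657200 (2.00 kb long), with no H3K36me3 for 2.79 Mb on the nearer side and 4.24 Mb on the other, and at chr8:102554601-102556000 (1.40 kb), with 2.60 and 4.15 Mb. They were followed by chr17:91636001-91637600 (1.60 kb, 2.59 Mb on the nearer side), chrX:31680601-31684400 (3.80 kb, 2.46 Mb) and chrX:81308801-81310000 (1.20 kb, 2.24 Mb on one side and 10.0 Mb on the other). These peaks were also far from H3K27me3, with 1.73, 3.40, 3.41, 2.97 and 2.99 Mb to the nearest peak in the same order. They thus stood in stretches of megabases in which neither mark was listed.

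Among the 5 farthest from H3K27me3 were the peaks on chromosomes 8 and 17 just named. The farthest, chr7:46752601-46754400 (1.80 kb), had no H3K27me3 for 4.66 Mb but an H3K36me3 peak at 19.4 kb. Similarly, chr2:44876601-44879400 (2.80 kb) was 4.29 Mb from H3K27me3 and 17.8 kb from H3K36me3. At chrX:109484001-109487600 (3.60 kb), H3K27me3 was 3.24 Mb and H3K36me3 0.666 Mb away. Distance from H3K27me3 and distance from other H3K36me3 peaks therefore did not always go together. Over the gap classes, the median distance to H3K27me3 was 102 kb (54.8 to 133) at gaps of 10 to 20 kb, 160 kb (90.0 to 211) at 100 to 500 kb and 581 kb (336 to 770) at 500 kb and more.

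Lengths of the short isolated peaks ran from 1.20 kb, the shortest peak of the list, to 4.80 kb, with quartiles of 2.40 and 4.20 kb. The shorter a peak was, the more often it was isolated. This held for 91 of 108 peaks under 2 kb (84.3%, 76.0 to 90.6), 151 of 217 from 2 to under 3 kb (69.6%, 63.0 to 75.6), 164 of 257 from 3 to under 4 kb (63.8%, 57.6 to 69.7) and 189 of 320 from 4 to under 5 kb (59.1%, 53.5 to 64.5). Above the limit the share stayed between 55.0% and 57.6% in each of 4 length classes up to the longest. At the length limit, 40 isolated peaks were 4.80 kb long and 35 were 5.00 kb long. At the gap limit, the nearest on the inside were 3 peaks with a gap of 10.2 kb, at chr4:148661801-148666200, chr6:146863201-146867400 and chr7:31339001-31343000. Just outside it were 3 short peaks with a gap of 9.80 kb, at chr2:119727401-119730800, chr6:112555401-112559000 and chr15:82177601-82182000. Their distances to H3K27me3, 36.2 to 407 kb inside and 22.2 to 418 kb outside, covered about the same range.

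**Figure D4:**
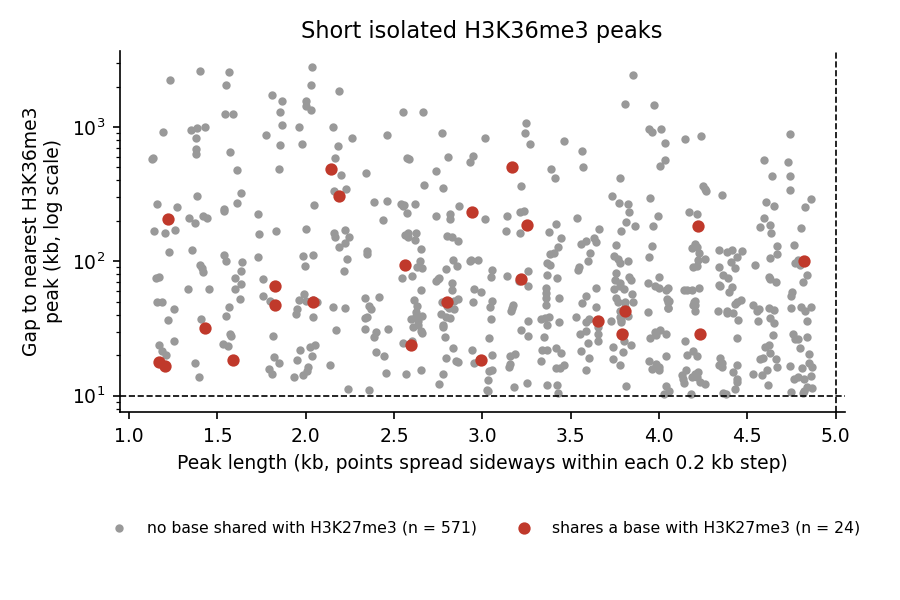
Gap to the nearest H3K36me3 peak in kb (y axis, log scale) against peak length in kb (x axis) for the 595 short isolated peaks, with the 24 that share a base with H3K27me3 in red. Dashed lines are the limits of 10 kb and 5 kb that chose the peaks. The red points lie at gaps of 16.6 to 508 kb.

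The neighbours of short isolated peaks were mostly of ordinary length. The nearest H3K36me3 peak had a median length of 13.6 kb (11.8 to 15.2), close to the 13 kb (12 to 14 kb) beside short peaks with a near neighbour and to the 15.0 kb of the whole list. The nearest H3K36me3 peak was itself under 5 kb for 102 short isolated peaks (17.1%, 14.2 to 20.4), against 10.8% over all H3K36me3 peaks, 47 of 307 short peaks with a near neighbour (15.3%, 11.5 to 19.8) and 434 of 3860 longer isolated peaks (11.2%, 10.3 to 12.3). The interval of the short isolated peaks lay above that of the longer isolated peaks, whereas that of short peaks with a near neighbour overlapped with both. In list order, 457 short isolated peaks stood singly, 98 formed pairs, 30 formed runs of 3 and 10 formed 2 runs of 5.

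These runs of 5, singled out after their values were seen, were on chromosomes 10 and 17. The run on chromosome 10 went from 81182801 to 81574200, or 391 kb, and the run on chromosome 17 from 15942201 to 17283800, or 1.34 Mb. Counted in fixed stretches of 2 Mb, 867 of 1294 stretches (67.0%) held no short isolated peak, 318 held 1, 70 held 2 and 39 held 3 or more. The fullest, from 80000001 to 82000000 on chromosome 10, held 8 among 25 H3K36me3 peaks.

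By chromosome, short isolated peaks numbered from 15 on chromosome 18 to 44 on chromosome 11, with a density of 0.133 per Mb on chromosome 9 to 0.414 per Mb on chromosome 19 (mean 0.242 ± 0.0835, SD over 20 chromosomes). Density is per Mb of the span between the outermost peaks of either list. Chromosomes 17 and 19, at 0.412 and 0.414 per Mb, also had many H3K36me3 peaks of any length (4.36 and 4.57 per Mb, where the median chromosome had 3.06).

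Chromosome X and chromosome 9 stood at opposite ends. On X, 29 of 30 short peaks were isolated (96.7%, 82.8 to 99.9) and short isolated peaks were 12% (8.21 to 16.8) of its H3K36me3 peaks. On chromosome 9, 16 of 36 short peaks were isolated (44.4%, 27.9 to 61.9) and made up 4.16% (2.39 to 6.66) of its H3K36me3 peaks. Over the whole list 66.0% (62.8 to 69.1) of the 902 short peaks were isolated, which lies outside the intervals of these chromosomes and inside those of the other 18. X and 9 are the extremes of 20 chromosomes, and among 20 such intervals a miss can arise from counting error alone. Because peaks cluster, the intervals are also too narrow. X was also the chromosome with the fewest H3K36me3 peaks per Mb (1.51), the widest median gap of short isolated peaks to H3K36me3 (188 kb) and their largest median distance to H3K27me3 (321 kb). Chromosome 17 had the smallest values of both, 36.9 kb and 32.6 kb. The part that the low density of H3K36me3 on X had in its share of isolated peaks was not tested.

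**Figure D5:**
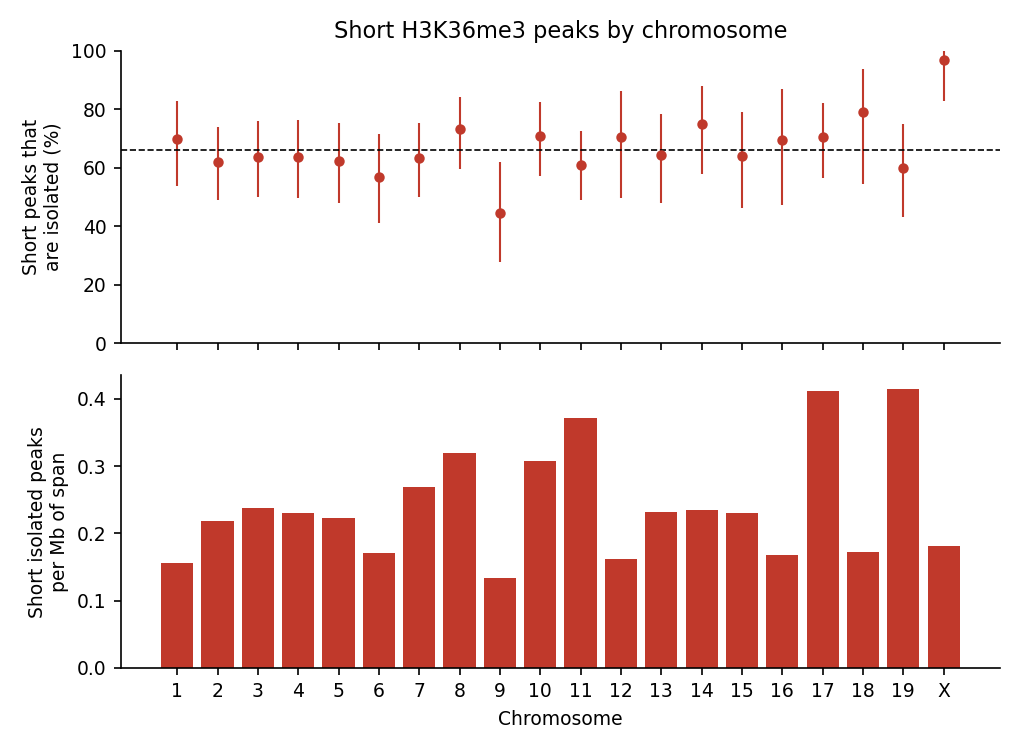
Share of H3K36me3 peaks under 5 kb that are isolated, in percent with exact 95% binomial intervals (upper panel), and number of short isolated peaks per Mb of span (lower panel), by chromosome. The dashed line is the share over all chromosomes, 66.0%. Chromosome X lies above it at 96.7% and chromosome 9 below it at 44.4%.

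Position along the chromosome showed little order. With the span of each chromosome divided into 10 equal parts from its low to its high coordinates, each part held 44 to 79 short isolated peaks. As a share of the H3K36me3 peaks of that part, they were lowest in the eighth, at 5.67% (4.15 to 7.54), and highest in the sixth, at 8.92% (7.00 to 11.2). The last part held the most in number, 79 (13.3%, 10.7 to 16.3), but it also held 12.1% of all H3K36me3 peaks.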

How the data were processed

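The ChIP-seq libraries were made from chromatin digested with micrococcal nuclease to mononucleosomes, with 5% kept as input, per the labels' protocols. Per the submitters' processing notes, Bowtie 1.0.0 was used for alignment to mm9. For the peak caller, its settings and the libraries called, nothing is given in the sources used here. The authors deposited 1 list of peak positions per mark (3 columns: chromosome, start, end), with no height, p-value or read number. Starts were multiples of 200 bp and ends lay 1 bp before one, so both ends were counted as included. The shortest peak was 1.20 kb in both lists.

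From the positions, gaps (bases between peaks), shared bases (at least 1 bp) and distances were computed with Python 3.11.15, pandas 2.3.3 and scipy 1.17.1. The code was tested on simulated data, where 0 of 500 peaks in 20 simulated sets differed from a count by position. Shares have exact binomial 95% intervals and medians have exact order-statistic ones. No test over peaks was made. Regions named were chosen by fixed rules: the 8 with the most shared bases, the 5 largest gaps, the 5 farthest from H3K27me3, the 5 tightest between H3K27me3 peaks, and 3 on either side of the gap limit. The members and lists were chosen with earlier results of these data known. Genes and sequences are not given, because the reference tables at hand are on another build (GRCm38) and positions were not converted.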

Additional observations from a re-analysis of the deposited data

How the results depend on the processing

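The 8 main results and 2 differences between the short classes were recomputed under 13 alternatives. The 2 differences kept their sign, whereas the 8 main results cannot be negative and so could not change theirs. Of 98 values, 75 stayed within the interval of the main value. For the number of peaks this meant within 1.5 times it, and for the share by chromosome within the SD over chromosomes. For the 2 differences, the interval ran from the lower limit of short isolated peaks minus the other class's upper limit, to the reverse. It was -0.228 to 5.74 percentage points for sharing and -10.1 to 0.912 for open sides. Such limits are wider than an interval of the difference itself. All alternatives of the 2 differences lay within them, even a sharing excess of 0.462 against 3.06. Their part of the 75 thus does not show that these differences are stable. Joining H3K36me3 peaks closer than 5 kb left 595 short isolated peaks, so values computed from these alone stayed. The values that moved did so mostly because the alternative redefines the peaks counted. The number of short isolated peaks was 242 under 3 kb, 1156 under 8 kb and 329 with 50 kb on both sides. The share within 10 kb of H3K27me3 was 7.44% under 3 kb, 4.54% within 5 kb and 29.2% within 50 kb, and by open side it was 4.15% under 3 kb and 2.36% within 5 kb. The median distance to H3K27me3 was 168 kb under 3 kb, 106 kb under 8 kb, 175 kb with 50 kb on both sides and 171 kb with only H3K27me3 peaks of 5 kb and longer. H3K27me3 was next on both sides for 23.9% with 50 kb on both sides and 10.6% with only H3K27me3 peaks of 5 kb and longer. The median gap was 84.9 kb under 3 kb and 78.9, 148 and 48.4 kb with 20, 50 and 5 kb on both sides. The median chromosome had 64.1% of its short peaks isolated, and this became 74.5% under 3 kb, 53.3%, 36.8% and 76.1% with 20, 50 and 5 kb on both sides, and 89.8% with H3K36me3 peaks closer than 5 kb joined.

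The share with a base in H3K27me3 ranged from 2.68% (under 8 kb) to 5.37% (under 3 kb). It was 3.41% without chromosome 17, an alternative chosen after seeing the data, as were the differences between the short classes and the separate values for peaks that share no base. The excess over short peaks with a near neighbour, 3.06 percentage points, stayed above 0 but fell to 0.551 with 50 kb on both sides and 0.462 with peaks closer than 5 kb joined, which leaves 84 short peaks with a near neighbour. No paired analysis was possible because each antibody was used on a single library per genotype. Without read numbers in the lists, what depth limits is unknown.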
